A study of Mus musculus with 20 samples.

Results

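Acute phase proteins are plasma proteins whose synthesis changes when tissue is inflamed or infected. The liver makes most of them, under the control of IL-6 type cytokines acting through STAT3 and of IL-1 type cytokines acting through NF-kB and C/EBP factors, and adipose tissue makes some of them as well. The 10 genes described here were chosen by name, namely Saa1, Saa2, Saa3, Orm1, Orm2, Hp, Lcn2, Crp, Apcs and Hamp1, of which Saa1 has 2 probes and the other genes have 1 each. They are 10 of the 27962 gene names on the array and were read by 11 of the 41174 probes on the array that are not controls. A probe belonged to a gene when its symbol in the files, or the current symbol of its accession, was that gene's name (Hamp for Hamp1, the hepcidin gene), and the brightest probe stood for the gene. The rule uses names alone.

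RNA came from 7 month-old male C57BL/6 mice that had eaten a high-fat diet (HFD) with 35% fat, over 21 weeks, so every array carries the diet and no array on a normal diet was analysed here. WT(HFD) mice were wildtype. CD44KO(HFD) mice lacked Cd44, the gene of a cell surface receptor for hyaluronan, in every cell, since the deletion is carried in the germ line, and the line had been backcrossed onto C57BL/6J. Liver and white adipose tissue (WAT) were each read on 5 WT(HFD) and 5 CD44KO(HFD) arrays, 20 in all. The design asks how the loss of CD44 changes expression in each tissue of obese mice. The labels do not say whether liver and WAT of the same number came from the same mouse.

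The value used throughout, called the log2 signal, is the log2 of the processed spot intensity minus the 75th percentile of that array. A spot was well above background when it cleared the background by 13 SD. Between 57.4 and 61.9% of spots did so on liver arrays and between 63.2 and 69.5% on WAT arrays, except for WT(HFD) WAT replicate 1, where 89.5% did. That array also correlated least with its own group, with a median r of 0.837 against 0.973 or more for each other array. Genotype differences in WAT are therefore given with and without it for each member tested there. The Cd44 probe with the highest signal lay between 0.11 and 0.83 in WT(HFD) liver and between -4.19 and -3.24 in CD44KO(HFD) liver, and the labels of genotype fit these levels in WAT too, where the ranges were 3.55 to 4.56 and -0.67 to -0.35. Samples were bulk tissue, so fewer cells of a type and less RNA in each cell cannot be told apart.

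The sequences of the probes that carry the main results are shown so that each value can be tied to the transcript it reads. They are the 60-base probes of the files, 5′ to 3′, at the mm7 positions that the files give. The orosomucoid probes come first, since both members fell in liver, followed by their neighbour Orm3. Orm1 lies at chr4:62779145-62779752, Orm3 at chr4:62791572-62793055 and Orm2 at chr4:62797641-62797700, all on the + strand, and the Orm1 and Orm3 probes span more than 60 bases of the genome, as a probe over a splice junction does.
Orm1: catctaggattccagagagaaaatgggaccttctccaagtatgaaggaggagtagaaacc
Orm2: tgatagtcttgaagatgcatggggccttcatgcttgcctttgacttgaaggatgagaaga
Orm3: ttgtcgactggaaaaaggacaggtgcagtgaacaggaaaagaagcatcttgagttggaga

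The Saa1 and Saa3 probes lie on chromosome 7, on the - strand. The brighter Saa1 probe is at chr7:42916901-42916960, the dimmer Saa1 probe at chr7:42916998-42917470 and the Saa3 probe at chr7:42888862-42888921. The files list a Saa1 accession beside the Saa3 accession for the Saa3 probe, and RefSeq names Saa1 and Saa2 as synonyms of each other, so signals within this family may be shared.
Saa1, brighter: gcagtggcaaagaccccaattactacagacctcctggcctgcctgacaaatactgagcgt
Saa1, dimmer: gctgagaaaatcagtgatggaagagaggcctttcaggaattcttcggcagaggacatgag
Saa3: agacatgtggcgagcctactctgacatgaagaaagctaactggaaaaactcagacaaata

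The hepcidin probes are the pair most alike in sequence, with 42 of 59 aligned bases the same, and are shown because Hamp2 passed the test in liver and Hamp1 did not, a difference between the 2 genes that was not tested. Hamp1 is read at chr7:27882251-27882310 and its neighbour Hamp2 at chr7:27862281-27862340. Capitals mark bases that differ in the alignment of the pair or have no partner in it.
Hamp1: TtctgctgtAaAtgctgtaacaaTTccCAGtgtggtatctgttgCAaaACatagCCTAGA
Hamp2: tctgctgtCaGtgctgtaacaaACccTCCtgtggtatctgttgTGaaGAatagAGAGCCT

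In liver, the orosomucoid genes Orm1 and Orm2 were lower in CD44KO(HFD) than in WT(HFD) mice, and no other member passed the test. Fold changes were 1.51 for Orm1 and 1.75 for Orm2. The serum amyloid genes and Lcn2 did not pass, and they ranged much more widely among CD44KO(HFD) livers than among WT(HFD) livers. Hp, Crp, Apcs and Hamp1 moved little or varied as much within groups as between them. All 10 members were tested, 2 of them passed at an adjusted p of 0.05 (limma, Benjamini-Hochberg over 24697 probes), and both were lower, while 3 did at an unadjusted p of 0.05, beside 32.2% of probes. Over all probes tested 13.6% passed, and 5.76% passed as lower in CD44KO(HFD). The median log2 fold change of the members was -0.50, beside 0.08 over all probes, with 8 members lower and 2 higher. With 1 array left out the members' median ranged from -0.79 to -0.16, and it was -0.21 without CD44KO(HFD) replicate 1, -0.16 without replicate 2 and -0.79 without replicate 4.

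Orosomucoids, also called alpha-1-acid glycoproteins, are lipocalins that carry drugs and lipids in plasma and temper inflammation. The log2 signal of Orm1 in WT(HFD) liver was 5.33, 5.43, 5.41, 5.12 and 5.44 in replicates 1 to 5, and in CD44KO(HFD) liver it was 4.36, 4.30, 4.84, 5.11 and 5.11. Every CD44KO(HFD) array was below every WT(HFD) array, though replicates 4 and 5 lay just under the lowest WT(HFD) value. Orm1 thus had a log2 fold change of -0.60 (SE 0.17, n = 5, 95% confidence interval -0.98 to -0.21, adjusted p = 0.0473). Orm2 measured 6.10, 5.98, 6.14, 5.59 and 6.16 in WT(HFD) liver and 4.83, 4.59, 5.46, 5.50 and 5.54 in CD44KO(HFD) liver. Its groups did not overlap either, and in both genes CD44KO(HFD) replicates 1 and 2 were the lowest arrays. For Orm2 the log2 fold change was -0.81 (SE 0.20, n = 5, interval -1.26 to -0.35, adjusted p = 0.0314).

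Over the 252 ways of splitting 10 arrays into groups of 5, the exact permutation test (two-sided) gave p = 0.00794 for each of the 2 orosomucoid genes, which is the smallest p it can give. Groups that did not overlap, with CD44KO(HFD) lower, were found for 4.22% of all probes tested in liver. Both genes were lower within each of the 3 liver slides, by log2 differences of -0.41, -0.56 and -1.04 for Orm1 and -0.63, -0.74 and -1.31 for Orm2, where the last slide held 1 array of each genotype. The calls lie close to the threshold. Under other settings the adjusted p ranged from 0.0275 to 0.241 for Orm1 and from 0.0161 to 0.151 for Orm2, and with each array left out in turn Orm1 passed in 2 of 10 fits and Orm2 in 4 of 10.

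Orm3, the gene between them, is no member and was chosen after its values were seen. It measured 1.94, 1.86, 2.15, 1.35 and 2.10 in WT(HFD) liver and -0.94, -0.73, 1.0, 0.43 and 0.72 in CD44KO(HFD) liver. The order of the arrays resembled that of Orm1 and Orm2, with replicates 1 and 2 lowest and no overlap of the groups. Its log2 fold change was -1.79 (SE 0.37, n = 5, adjusted p = 0.0188).

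Serum amyloid A proteins ride on high-density lipoprotein and can rise to very high levels in an acute response. Saa1 measured 7.14, 6.92, 7.22, 6.58 and 6.76 in WT(HFD) liver and 5.10, 4.51, 6.95, 8.41 and 6.49 in CD44KO(HFD) liver. Among CD44KO(HFD) arrays, 3 were thus below all WT(HFD) arrays and replicate 4 was above them all. Its mean difference was -0.63 on the log2 scale (SE 0.62, n = 5, interval -2.01 to 0.75, adjusted p = 0.518), and the interval spans falls and rises alike. Saa2, the close paralog of Saa1, followed it, with 7.47, 7.33, 7.51, 6.92 and 7.08 in WT(HFD) liver and 5.16, 4.47, 7.20, 8.50 and 6.81 in livers of CD44KO(HFD) mice, and its log2 fold change was -0.83 (SE 0.65, n = 5, adjusted p = 0.407). Saa3, which macrophages and adipocytes also make, gave 4.32, 4.08, 4.32, 3.81 and 3.82 against 2.35, 1.90, 4.20, 5.93 and 3.99, for a log2 fold change of -0.40 (SE 0.65, n = 5, adjusted p = 0.71). The same 2 arrays were low and the same array high for each of the 3 genes.

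The spread between livers was the feature that set the amyloid genes apart from most probes, as a description of these 10 arrays with no test. The SD of Saa1 over 5 arrays was 0.27 in WT(HFD) liver and 1.55 in CD44KO(HFD) liver, a ratio of 5.83, and 0.433% of probes tested had a ratio as large. For Saa2 the ratio was 6.38, reached by 0.316% of probes, and for Saa3 it was 6.41, reached by 0.30% of probes. The probes of these genes are not independent of each other, so the ratios are close to 1 observation. Across the 10 members, 5 had a ratio over 2 in liver against 11.5% of probes tested, the other two being Orm1 at 2.93 and Lcn2 at 2.65. In WAT none of the 9 members tested had a ratio over 2, against 14.2% of probes.

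**Figure D1:**
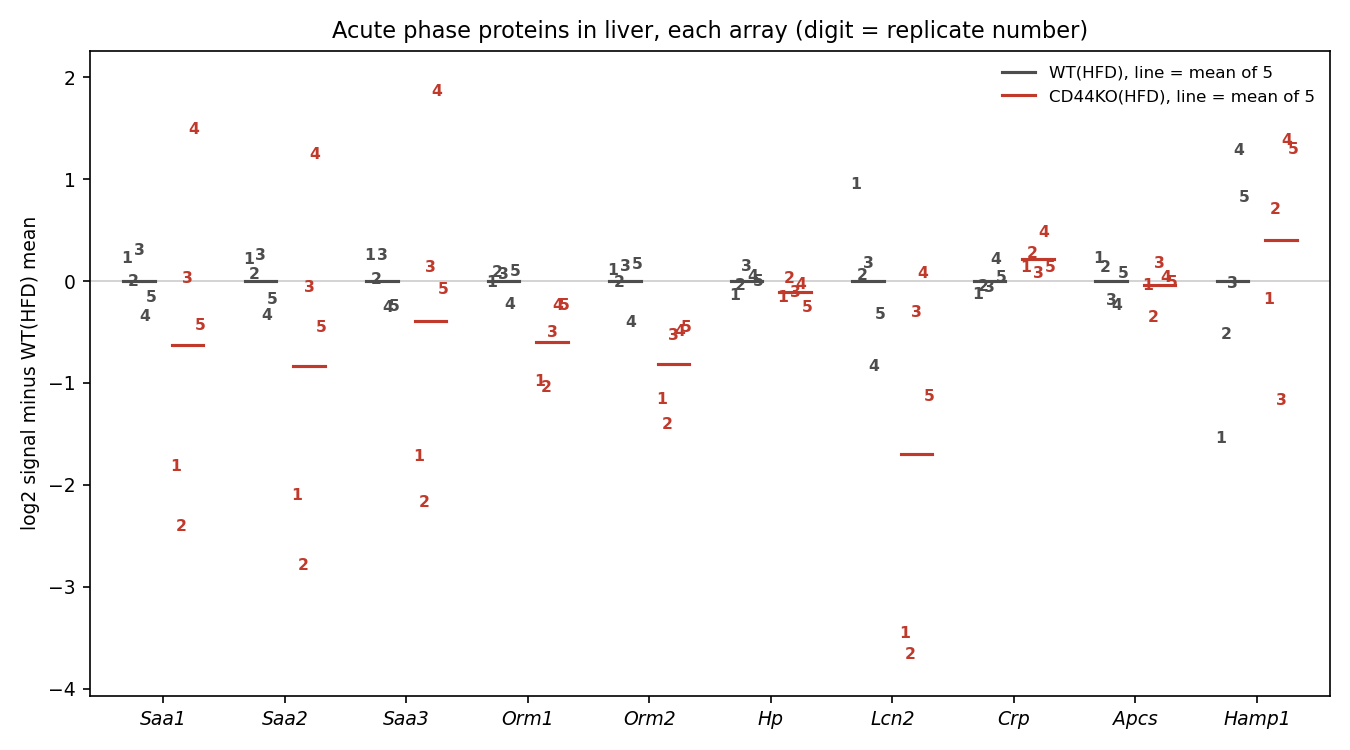
Log2 signal of each acute phase gene in liver, relative to its WT(HFD) mean, with arrays as digits giving the replicate number (grey WT(HFD), red CD44KO(HFD)) and lines for group means over 5 arrays. CD44KO(HFD) replicates 1 and 2 lie lowest and replicate 4 highest for Saa1, Saa2 and Saa3, and the groups do not overlap for Orm1 and Orm2.

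Lipocalin 2, which binds bacterial siderophores and is also stored in neutrophil granules, measured 1.66, 0.76, 0.88, -0.13 and 0.38 in WT(HFD) liver. In CD44KO(HFD) liver it measured -2.75, -2.96, 0.40, 0.78 and -0.42. The low arrays were again replicates 1 and 2, and the highest CD44KO(HFD) value, in replicate 4, lay inside the WT(HFD) range. Lcn2 had a log2 fold change of -1.70 (SE 0.74, n = 5, interval -3.36 to -0.05, adjusted p = 0.145, exact permutation p = 0.0873), so the largest mean difference among the members did not pass. Lcn2 was lower within all 3 liver slides, by -1.03, -1.41 and -3.64.

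Across the 10 liver arrays Saa1 rose and fell with Saa2, Saa3, Lcn2, Orm1 and Orm2, with Pearson correlations of 0.99, 0.99, 0.90, 0.77 and 0.72. Its correlations with Hp, Crp and Hamp1 were 0.13, -0.01 and -0.02, and with Apcs 0.53. These are descriptions over arrays that share slides and a genotype split, and within the 5 CD44KO(HFD) arrays the correlations of Saa1 with Lcn2, Orm1 and Orm2 were 0.96, 0.89 and 0.88. Outside the 10 members, the genes whose pattern in liver was most like that of Saa1, among 21253 probes well above background on all 10 arrays, were Atxn10 (r = 0.938), Aldh3a2, a fatty aldehyde dehydrogenase (r = 0.914), and Chchd6 (r = 0.902). Their rank correlations (Spearman) with Saa1 were lower, at 0.721, 0.564 and 0.77. Of 22 other positive acute phase genes tested, 1 had a correlation with Saa1 over 0.7, namely Hpx, the haem-binding hemopexin, at 0.77. Over all probes 1.03% did, and the median correlation of the list was 0.185 beside -0.08.

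**Figure D2:**
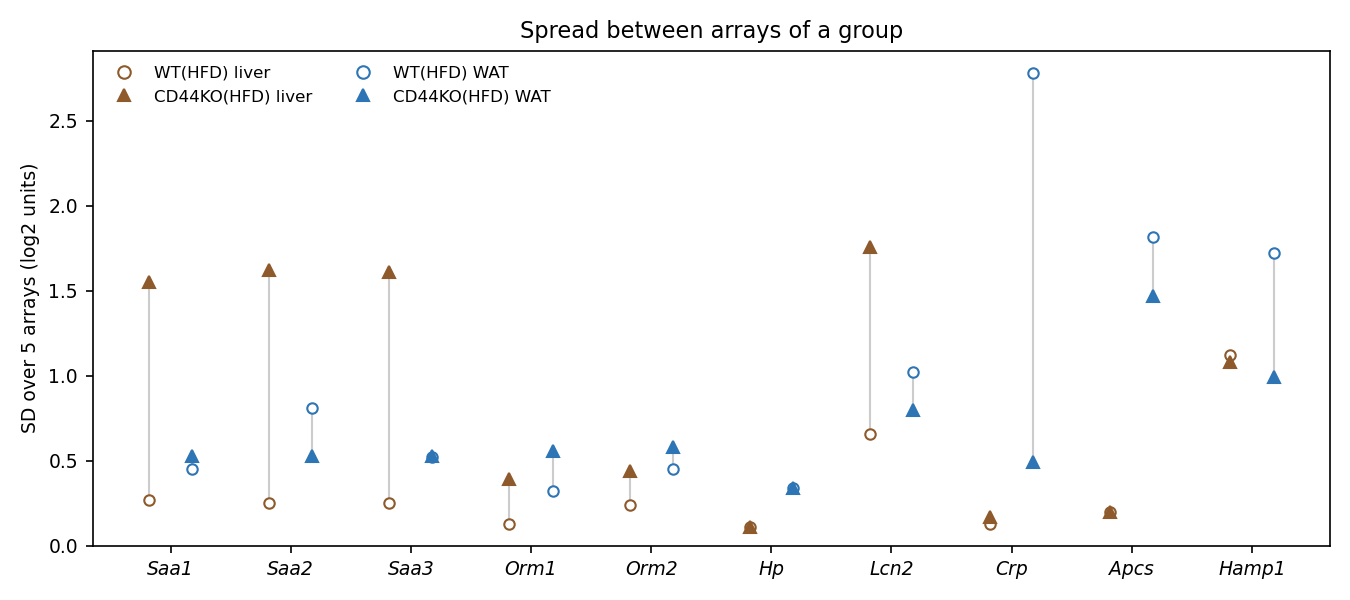
SD of the log2 signal over the 5 arrays of each group, for each acute phase gene (circles WT(HFD), triangles CD44KO(HFD), brown liver, blue WAT), with the axis from 0. In liver the CD44KO(HFD) SD of Saa1, Saa2, Saa3 and Lcn2 lies between 1.55 and 1.76, and the WT(HFD) SD lies between 0.25 and 0.66.

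Haptoglobin captures free haemoglobin. Hp measured 9.76, 9.86, 10.04, 9.94 and 9.90 in WT(HFD) liver and 9.74, 9.92, 9.79, 9.87 and 9.64 in that of CD44KO(HFD) mice, which is a log2 fold change of -0.11 (SE 0.08, n = 5, interval -0.28 to 0.07, adjusted p = 0.391). The groups overlapped, and a difference of the size measured for Orm1 lies outside the interval. Hp was the brightest member in liver, and its spot was flagged as saturated on some WAT arrays but on no liver array. Whether its brightness narrowed the differences between livers was not tested.

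C-reactive protein and serum amyloid P, the Crp and Apcs products, are pentraxins that bind damaged membranes and microbes, and in mice serum amyloid P is the more responsive. Crp measured 0.96, 1.04, 1.03, 1.30 and 1.12 in WT(HFD) liver and 1.22, 1.36, 1.16, 1.57 and 1.22 in CD44KO(HFD) liver. All 5 CD44KO(HFD) arrays were above the WT(HFD) mean, 2 of them above every WT(HFD) array. Crp had a log2 fold change of 0.22 (SE 0.10, n = 5, adjusted p = 0.162), and the exact permutation p was 0.0476. Apcs ranged from 1.74 to 2.20 in WT(HFD) liver and from 1.62 to 2.15 in livers lacking CD44, with a log2 fold change of -0.04 (SE 0.12, n = 5, interval -0.31 to 0.24, adjusted p = 0.861).

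Hepcidin, the Hamp1 product, holds iron in cells by removing the exporter ferroportin. Hamp1 varied widely in both genotypes, with 3.50, 4.52, 5.02, 6.33 and 5.87 in WT(HFD) liver and 4.87, 5.75, 3.88, 6.43 and 6.34 in CD44KO(HFD) liver. Hamp1 had a log2 fold change of 0.40 (SE 0.62, n = 5, interval -0.96 to 1.77, adjusted p = 0.69). Hamp2, its duplicate, is no member and was chosen after its values were seen. It measured 3.47, 3.62, 4.62, 5.00 and 5.80 against 7.33, 6.47, 5.27, 6.50 and 5.63, with all CD44KO(HFD) arrays above the mean of the WT(HFD) arrays. Hamp2 differed by 1.74 on the log2 scale (SE 0.50, n = 5, adjusted p = 0.0472), while the difference between the changes of the 2 genes was not tested.

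Promoters of 2 pairs of neighbouring genes are shown because they are nearly alike in sequence within each pair. They are the 250 bases before the RefSeq start in build GRCm38.p6, 5′ to 3′ along the gene, and capitals mark bases that differ or have no partner in the alignment of the pair. RefSeq promoter sequences were taken for 8 of the 10 members, and Orm1 and Hp were not among those looked up. The Saa1 window is chr7:46742981-46743230 on the - strand and the Saa2 window chr7:46751583-46751832 on the + strand, and 238 of 249 aligned bases were the same. The Hamp window, that of Hamp1, is chr7:30944030-30944279 and the Hamp2 window chr7:30924182-30924431, both on the - strand, with 227 of 247 aligned bases the same.
Saa1: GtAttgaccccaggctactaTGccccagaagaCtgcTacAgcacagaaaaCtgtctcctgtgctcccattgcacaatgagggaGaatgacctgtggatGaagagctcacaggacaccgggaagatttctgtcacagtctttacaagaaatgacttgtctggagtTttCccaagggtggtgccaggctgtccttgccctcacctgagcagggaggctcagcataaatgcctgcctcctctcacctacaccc
Saa2: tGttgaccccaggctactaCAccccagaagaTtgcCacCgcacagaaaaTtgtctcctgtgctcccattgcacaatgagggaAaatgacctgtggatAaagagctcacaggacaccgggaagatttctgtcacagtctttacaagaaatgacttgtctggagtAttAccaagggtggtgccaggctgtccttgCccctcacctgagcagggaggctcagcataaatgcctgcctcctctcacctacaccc
Hamp: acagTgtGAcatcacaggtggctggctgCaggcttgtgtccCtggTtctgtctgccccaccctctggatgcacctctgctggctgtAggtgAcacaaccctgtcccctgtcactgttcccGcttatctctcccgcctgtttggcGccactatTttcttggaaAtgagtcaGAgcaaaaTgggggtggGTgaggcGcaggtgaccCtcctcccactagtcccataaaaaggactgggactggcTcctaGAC
Hamp2: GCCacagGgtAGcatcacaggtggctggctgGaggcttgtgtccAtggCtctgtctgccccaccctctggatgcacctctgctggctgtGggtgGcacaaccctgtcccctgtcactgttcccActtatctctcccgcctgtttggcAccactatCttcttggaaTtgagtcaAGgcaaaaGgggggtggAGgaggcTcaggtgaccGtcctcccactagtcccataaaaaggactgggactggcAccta

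Motifs were searched in these windows on both strands, TTNNGNAA for C/EBP factors and TTCNNNGAA for STAT factors, each counted on its own where they overlap. They were present in 36.8% and 7.02% of the 32851 promoters of the table, respectively. The C/EBP letters were present before Saa1, Saa2, Saa3, Orm2, Lcn2 and Crp, and not before Apcs or Hamp. The STAT letters were found once each before Apcs, Hamp and Hamp2. A match describes letters and not a site in use.

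Other genes of the acute phase response did not move in 1 direction in liver. Of 22 other positive acute phase genes tested, 5 rose, beside 7.84% of all probes, and 2 fell. Those that rose most were Fgl1, a fibrinogen-like protein, by 1.57 on the log2 scale (SE 0.34, adjusted p = 0.0209), Itih4, an inter-alpha-trypsin inhibitor chain, by 0.72 (SE 0.17, adjusted p = 0.0256), and Itih3 by 0.61 (SE 0.14, adjusted p = 0.0258). The fibrinogen chain genes Fga and Fgg rose by 0.52 and 0.32, and the genes that fell were the ferroxidase Cp, by 0.39, and the metalloreductase Steap4, by 0.50. The median of the list was 0.09, beside 0.08 over all probes. Among 10 negative acute phase genes, whose products fall in an acute response, 2 rose, beside 7.84% of all probes. These were the corticosteroid-binding globulin Serpina6, by 0.78 (SE 0.22, adjusted p = 0.0454), and Pzp, a protease inhibitor, by 0.56 (SE 0.08, adjusted p = 0.00806). The median of the negative list was 0.22, beside 0.08 over all probes. Saa4, a constitutive amyloid gene, measured 4.25 to 4.79 in WT(HFD) liver and 4.84 to 6.03 in livers of CD44KO(HFD) mice, with a log2 fold change of 0.68 (SE 0.20, adjusted p = 0.0512).

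Upstream of the members, 3 of 15 cytokine and receptor genes tested in liver passed, beside 13.6% of all probes. Il6st, the shared signal chain of IL-6 type receptors, fell by 0.39 (SE 0.08, adjusted p = 0.0196), whereas Lifr, the leukaemia inhibitory factor receptor, rose by 1.01 (SE 0.30, adjusted p = 0.0491) and Il1rap, the accessory chain of the IL-1 receptor, by 0.88 (SE 0.20, adjusted p = 0.0237). Of 14 signal transducer and transcription factor genes, Cebpa alone passed, at 0.28 (SE 0.08, adjusted p = 0.0384). Of 19 genes of hepcidin control and iron handling, 4 rose and 2 fell, beside 7.84 and 5.76% of all probes, among them Id1, a target of BMP signalling, which fell by 1.13 (SE 0.19, adjusted p = 0.0115), Bmp6, the ligand that iron induces, which rose by 0.70 (SE 0.17, adjusted p = 0.0267), and Tfr2, transferrin receptor 2, which rose by 0.64 (SE 0.11, adjusted p = 0.0129). None of 12 receptor and partner genes of the members passed by limma.

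Markers of other cells moved beside these results. The summed level of 9 adipocyte markers, in multiples of the 75th percentile of the array, ranged from 92.4 to 120 in WT(HFD) liver and from 16.4 to 82 in CD44KO(HFD) liver, and the arrays lowest in Saa1 were also the lowest here, at 28.3 in replicate 1 and 16.4 in replicate 2. In WT(HFD) liver most of that sum was Cidec, a lipid droplet gene that fatty hepatocytes also express, which measured 5.84 to 6.42 and 1.78 to 5.86 and passed with a log2 fold change of -2.12 (SE 0.62, adjusted p = 0.0485). No other adipocyte marker passed. Of those tested, Cfd, Fabp4 and Pparg differed by -1.28, -0.57 and -0.29, and Lipe by 0.02. The defining markers Adipoq, Lep, Plin1 and Retn were well above background on at most 2 of 5 arrays of a group and were not tested. The sum of 9 hepatocyte markers was 1970 to 2670 in WT(HFD) liver and 2610 to 3020 in CD44KO(HFD) liver, and of these genes Cyp2e1 rose by 0.62 (adjusted p = 0.0491) and F2 by 0.29 (adjusted p = 0.0423). The sum of 11 neutrophil markers was 2.09 to 3.32 and 1.27 to 2.49, with Ngp, Camp, Cxcr2 and Mmp8 well above background on no liver array. The neutrophil marker that passed, the cytokine receptor gene Csf3r, went the other way and rose by 0.59 (SE 0.14, adjusted p = 0.0276). S100a8, S100a9, Ltf and Mpo differed by -1.02, -0.96, -0.11 and -0.09, and none of these passed. The sum of 10 macrophage markers was 49.3 to 115 and 65.3 to 206, and it held calls in both directions, since the integrin gene Itgax fell by 2.01 (SE 0.49, adjusted p = 0.0284) and the scavenger receptor gene Marco rose by 2.95 (SE 0.82, adjusted p = 0.041). The sum of 6 mesothelial markers was 0.432 to 1.1 and 0.425 to 1.14. Of these genes Wt1 fell by 1.45 (SE 0.36, adjusted p = 0.0296), and it was well above background on 4 WT(HFD) arrays and 1 CD44KO(HFD) array. Msln and Upk3b differed by 0.62 and 0.76 and Krt19 by -0.48, and none of these passed. The part of these cells in the members' values was not tested.

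In WAT, no member passed the test. Of the 9 members tested 7 had a higher mean in CD44KO(HFD) mice, with the largest differences for Orm2, Saa3 and Orm1. At an unadjusted p of 0.05, 3 members passed in WAT, beside 14.9% of probes. By limma 0 of 9 members passed after adjustment over 27660 probes, of which 0.0398% passed, and the smallest adjusted p of a member was 0.223. The median log2 fold change of the members was 0.25, beside -0.06 over all probes, and without WT(HFD) replicate 1 it was 0.52, again with 0 members called.

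Orm1 measured 0.05, 0.75, 0.79, 0.65 and 0.83 in WT(HFD) WAT and 1.93, 2.03, 1.01, 1.0 and 0.89 in CD44KO(HFD) WAT. All CD44KO(HFD) arrays were above all WT(HFD) arrays, with replicates 1 and 2 well apart from the other three. Orm1 had a log2 fold change of 0.76 (SE 0.28, n = 5, interval 0.14 to 1.37, adjusted p = 0.261). Without WT(HFD) replicate 1, the lowest array, it was 0.62 (SE 0.26, adjusted p = 0.319 by limma), and the groups still did not overlap. With that array left out, 8.21% of probes tested had groups that did not overlap, in either direction.

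Orm2 measured 0.01, 0.81, 1.10, 0.98 and 1.04 in WT(HFD) WAT and 2.24, 2.51, 1.58, 1.27 and 1.22 in CD44KO(HFD) WAT. The pattern across arrays was that of Orm1, with which it correlated at 0.98 over the 10 WAT arrays. Its log2 fold change was 0.98 (SE 0.31, n = 5, interval 0.29 to 1.67, adjusted p = 0.223), and without WT(HFD) replicate 1 it was 0.79 (SE 0.28, adjusted p = 0.235). For both genes the two-sided exact permutation p was 0.00794 with all arrays, and without that array it was 0.0476 for Orm1 and 0.0317 for Orm2, where the smallest p that can be reached is 0.0159. Groups that did not overlap, with CD44KO(HFD) higher, were found for 4.1% of probes tested in WAT. Within the slides that held both genotypes the log2 differences were 1.10 and 0.22 for Orm1 and 1.37 and 0.60 for Orm2, and the slide left over held CD44KO(HFD) arrays only.

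Saa3 measured 0.87, 0.95, 1.46, 2.05 and 1.82 in WT(HFD) WAT and 3.13, 2.36, 2.31, 2.21 and 1.66 in CD44KO(HFD) WAT. Of the CD44KO(HFD) arrays 4 were above every WT(HFD) array, and replicate 5 was inside the WT(HFD) range. Saa3 had a log2 fold change of 0.90 (SE 0.31, n = 5, interval 0.21 to 1.60, adjusted p = 0.243, exact permutation p = 0.0317), and without WT(HFD) replicate 1 it was 0.76 (SE 0.31, adjusted p = 0.295, exact permutation p = 0.0635). Outside the members, the patterns most like that of Saa3 in WAT, among 23527 probes well above background on all 10 arrays, were those of Polr1e, an RNA polymerase I subunit (r = 0.944), the alpha globin gene Hba-a1 (r = 0.939) and a transcript with no symbol in the files (r = 0.938).

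**Figure D3:**
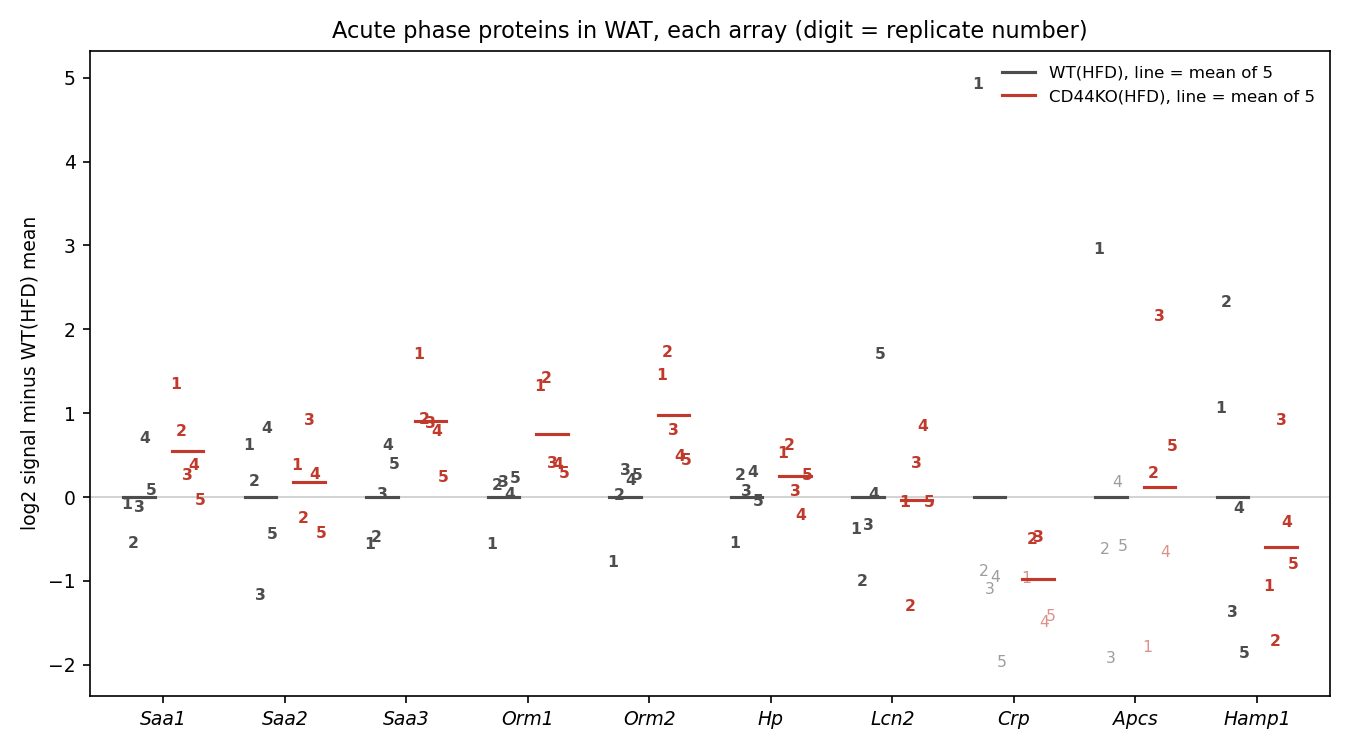
Log2 signal of each acute phase gene in WAT, relative to its WT(HFD) mean, drawn as for liver, with faint digits for arrays where the spot was not well above background. Every CD44KO(HFD) array lies above every WT(HFD) array for Orm1 and Orm2, and WT(HFD) replicate 1 stands apart for Crp and Apcs.

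With all 10 arrays used, the 2 Saa1 probes disagreed in WAT. The brighter probe measured 0.55, 0.08, 0.51, 1.33 and 0.71 in WT(HFD) WAT and 1.98, 1.42, 0.89, 1.01 and 0.60 in CD44KO(HFD) WAT, for a log2 fold change of 0.54 (SE 0.30, n = 5, adjusted p = 0.411) that was 0.52 without WT(HFD) replicate 1, whereas the dimmer probe gave -0.22 (SE 0.68, n = 5, adjusted p = 0.877). The dimmer probe measured -0.72 in WT(HFD) replicate 1, the array with 89.5% of spots well above background. It measured -3.19, -4.69, -2.50 and -3.93 in WT(HFD) replicates 2 to 5. In CD44KO(HFD) WAT the dimmer probe measured -2.79, -4.10, -2.36, -3.06 and -3.82. Its difference without WT(HFD) replicate 1 was not computed. Both probes traced the same arrays in liver, with a correlation of 1.0, but not in WAT, where it was 0.05. The brighter Saa1 probe instead followed the Saa3 probe in WAT, at 0.91, and the dimmer probe did not, at -0.16. These WAT correlations include WT(HFD) replicate 1, where the dimmer probe was highest, and were not computed without it. The sequences of the brighter Saa1 probe and the Saa3 probe matched at 21 of 58 aligned bases, and those of the Saa1 and Saa2 probes at 18 of 58. Probes were compared with each other and not with transcripts, so these matches do not show which RNA a probe reads. Whether the brighter probe also reads Saa3 RNA was not tested. Saa2 ranged from -3.44 to -1.45 in WT(HFD) WAT and from -2.70 to -1.36 in CD44KO(HFD) WAT, with a log2 fold change of 0.17 (SE 0.40, n = 5, interval -0.72 to 1.07, adjusted p = 0.837) that was 0.32 without WT(HFD) replicate 1.

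**Figure D4:**
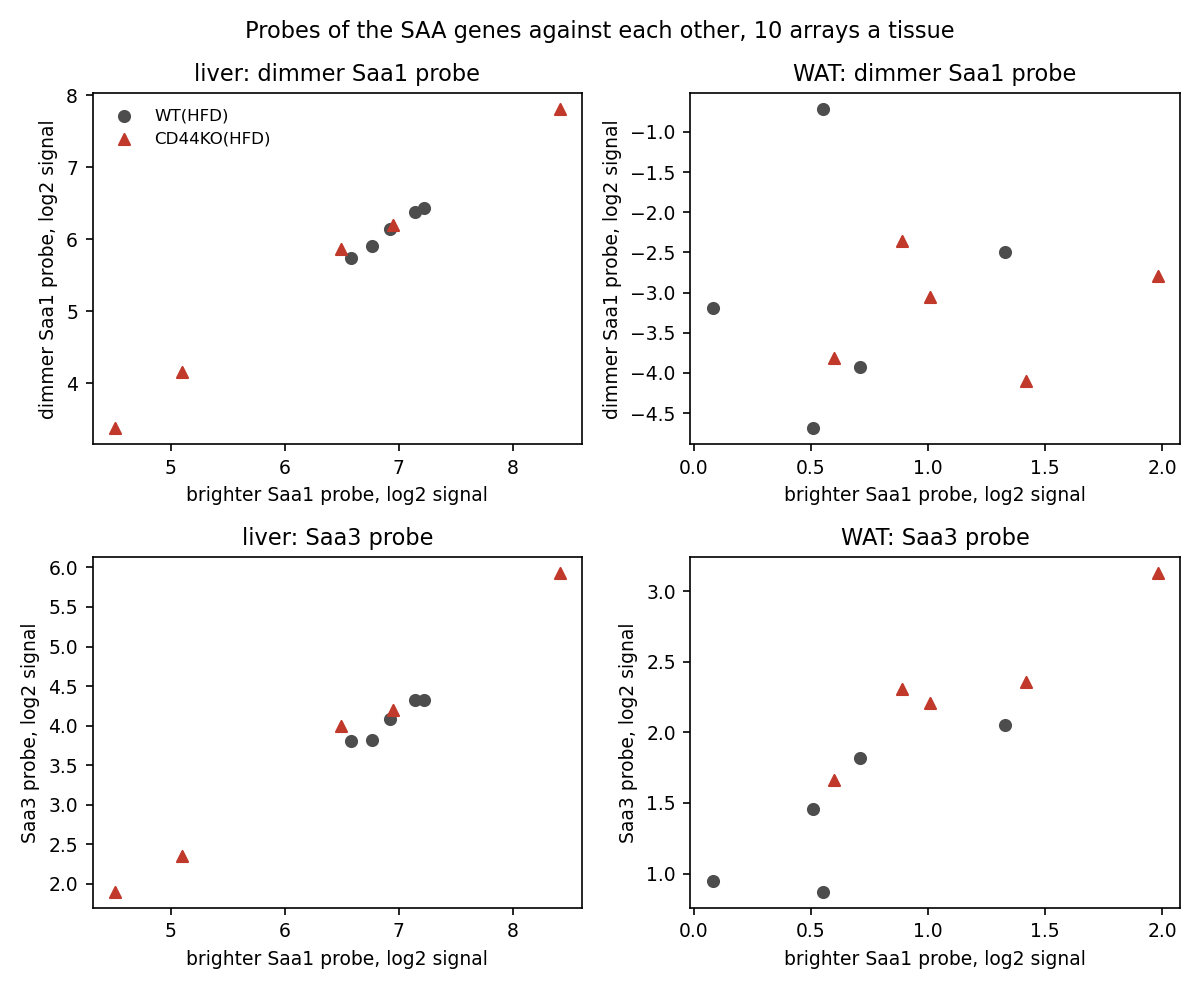
Log2 signal of the dimmer Saa1 probe (upper panels) and the Saa3 probe (lower panels) against the brighter Saa1 probe, 10 arrays in each tissue (circles WT(HFD), triangles CD44KO(HFD)). All probes rise together in liver, whereas in WAT the Saa3 probe follows the brighter Saa1 probe (r = 0.91) and the dimmer Saa1 probe does not (r = 0.05). Both WAT correlations include WT(HFD) replicate 1.

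The remaining members overlapped between genotypes in WAT. Hp ranged from 7.38 to 8.23 in WT(HFD) WAT and from 7.72 to 8.55 in CD44KO(HFD) WAT, with a log2 fold change of 0.25 (SE 0.22, n = 5, interval -0.24 to 0.73, adjusted p = 0.588), and its spot was saturated on 2 WT(HFD) and 4 CD44KO(HFD) arrays. Lcn2 ranged from -3.10 to -0.39 and from -3.40 to -1.26, with a log2 fold change of -0.04 (SE 0.53, n = 5, interval -1.21 to 1.13, adjusted p = 0.974). Hamp1 ranged from -5.29 to -1.11 and from -5.15 to -2.52, with a log2 fold change of -0.60 (SE 0.80, n = 5, interval -2.37 to 1.18, adjusted p = 0.712). Without WT(HFD) replicate 1 the log2 fold change was 0.11 for Hp, -0.14 for Lcn2 and -0.33 for Hamp1, with adjusted p by limma of 0.822, 0.934 and 0.878. The intervals of Lcn2 and Hamp1 are wide enough to hold differences as large as those of the orosomucoids in either direction.

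The pentraxins were near background in WAT. Crp was well above background on 1 WT(HFD) array, replicate 1 at -0.70, and on 2 CD44KO(HFD) arrays at -6.13 and -6.10, and it was not tested there. Its mean was -5.62 in WT(HFD) and -6.60 in CD44KO(HFD) WAT, and without WT(HFD) replicate 1 the WT(HFD) mean was -6.85. Apcs was well above background on 1 WT(HFD) array, again replicate 1 at -3.73, and on 3 CD44KO(HFD) arrays, with a log2 fold change of 0.12 (SE 0.94, n = 5, adjusted p = 0.957) that became 0.86 (SE 0.72, adjusted p = 0.598) without that WT(HFD) array.

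No gene of the 6 pathway lists passed in WAT by limma, with or without WT(HFD) replicate 1. Marker sums differed between arrays. The 9 adipocyte markers summed to 533 to 917 in WT(HFD) WAT and 776 to 1340 in CD44KO(HFD) WAT, and the highest values, 1340 and 1290, were in CD44KO(HFD) replicates 1 and 2, the arrays highest in Orm1 and Orm2. The 9 hepatocyte markers summed to 4.06 to 34.1 and 11.2 to 47.2, and in CD44KO(HFD) replicates 1 and 2 they summed to 11.2 and 11.8, the lowest of that group. Mesothelial markers, of which 6 were measured, summed to 2.31 to 11.4 and 1.04 to 3.49, and B and plasma cell markers, of which 7 were measured, to 2.69 to 50.5 and 1.24 to 4.93. The 50.5 was WT(HFD) replicate 5, and the other WT(HFD) arrays lay between 2.69 and 6.24. Epididymis markers, of which 8 were measured, summed to 0.339 and 0.32 in CD44KO(HFD) replicates 1 and 2 and to 0.0698 to 0.113 in the other three, while in WT(HFD) WAT they summed to 1.97 in replicate 1 and 0.0661 to 0.106 in the other four. On liver arrays the epididymis markers summed to 0.214 to 0.374 in WT(HFD) and 0.278 to 0.35 in CD44KO(HFD) mice. In WAT 3 of these 8 markers were tested and 0 passed. Neutrophil markers in WAT summed to 1.17 to 6.22 and 2.21 to 4.45, with 6.22 in WT(HFD) replicate 1, where 89.5% of spots were well above background. On that array Ngp, Cxcr2 and Camp measured 0.16, -0.01 and -0.85, against -5.28 or lower on every other WAT array. S100a8 and S100a9 on that array lay within the range of the other WAT arrays. The part of that array's quality in its neutrophil and epididymis sums was not tested. Macrophage markers in WAT summed to 282 to 397 and 287 to 362. The part of these cells in the members' values in WAT was not tested.

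**Figure D5:**
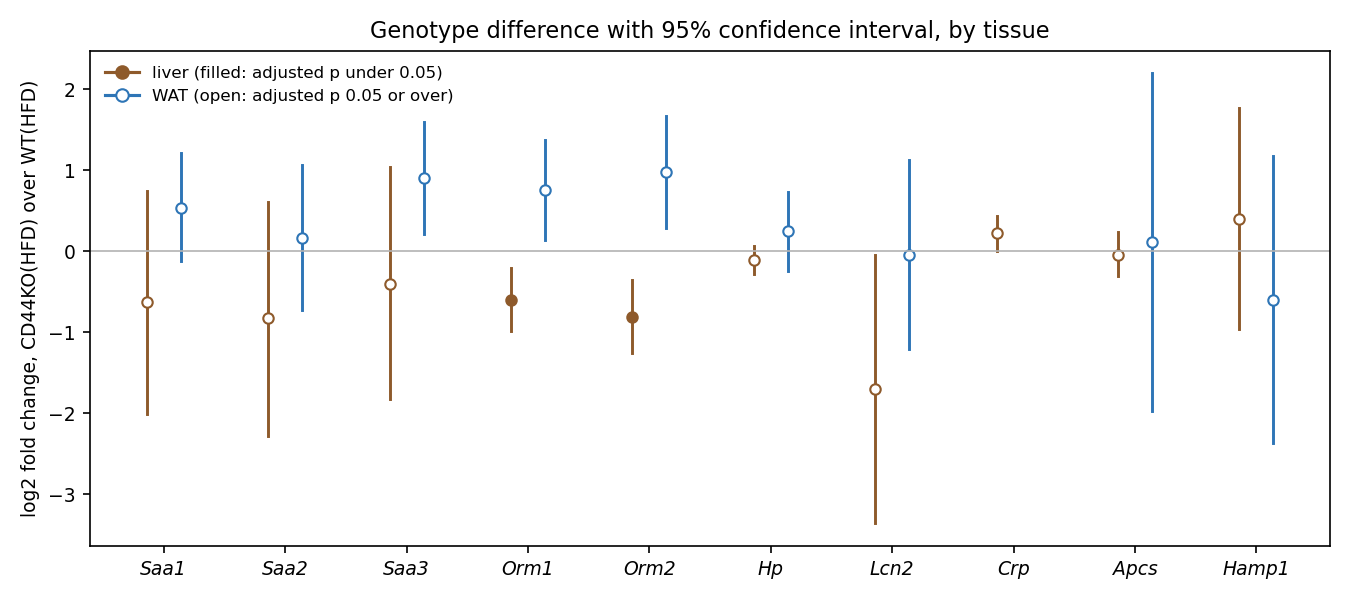
Log2 fold change of CD44KO(HFD) over WT(HFD) with its 95% confidence interval for each acute phase gene, in liver (brown) and WAT (blue), where filled points passed at an adjusted p of 0.05. Orm1 and Orm2 lie below 0 in liver, at -0.60 and -0.81, and above 0 in WAT, at 0.76 and 0.98, and Crp was not tested in WAT.

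The genotype difference in liver was set against that in WAT by an interaction term in a fit of all 20 arrays. Orm2 passed, with a difference of -1.79 on the log2 scale between the genotype effects (SE 0.39, n = 5 per group, interval -2.60 to -0.97, adjusted p = 0.0362), beside 1.15% of 28998 probes. Orm1 had a difference of -1.35 (SE 0.34, n = 5 per group, interval -2.06 to -0.64, adjusted p = 0.0571) and did not pass. The Orm2 call was lost with arrays scaled to their median (adjusted p = 0.227) or with no filter on dim probes (adjusted p = 0.0672), and with single arrays left out the adjusted p ranged from 0.0251 to 0.0766. Without WT(HFD) WAT replicate 1 the difference for Orm2 was -1.59 (adjusted p = 0.0367). For the other 8 members the adjusted p lay between 0.416 and 0.952.

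The mean of every member was higher in liver than in WAT, except for Hp after quantile normalization. In WT(HFD) mice 10 of 10 members passed as higher in liver, beside 36.2% of probes, and in CD44KO(HFD) mice 9 of 10 did, beside 41.8%. Liver and WAT arrays were read on different slides and scanners, so tissue and scan cannot be told apart, and with quantile normalization the Hp log2 difference was -0.36 in WT(HFD) and -0.51 in CD44KO(HFD) mice. The log2 difference of Saa2 was 9.53 (SE 0.57) in WT(HFD) mice and 8.53 (SE 0.57) in CD44KO(HFD) mice, a fold of 740 and 369. Hamp1 differed by 8.48 (SE 0.75) and 9.48 (SE 0.75), and Saa1 by 6.29 (SE 0.52) and 5.11 (SE 0.52). Without WT(HFD) WAT replicate 1 all 10 members again passed in WT(HFD) mice, with log2 differences of 9.68 for Saa2, 8.74 for Hamp1, 6.27 for Saa1, 4.59 for Orm1, 5.01 for Orm2, 2.50 for Saa3 and 2.71 for Lcn2.

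Orm1 was 26.5-fold and Orm2 37-fold higher in liver of WT(HFD) mice, and 10.4-fold and 10.7-fold higher in liver of CD44KO(HFD) mice. Saa3 was 6.23-fold higher in liver of WT(HFD) mice and 2.53-fold higher in that of CD44KO(HFD) mice, and Lcn2 7.01-fold and 2.21-fold. No fold is given for Hp, whose WAT spot was saturated on 2 WT(HFD) and 4 CD44KO(HFD) arrays. Crp and Apcs were near background in WAT, so their folds are bounds, with each dim WAT array set no lower than the dimmest probe that cleared its background. In CD44KO(HFD) mice, where 2 and 3 WAT arrays measured them, Crp was at least 182-fold and Apcs at least 221-fold higher in liver. In WT(HFD) mice the bounds were 74.9-fold and 210-fold with WAT replicate 1, the array on which both were measured, and 162-fold and 298-fold without it. Lcn2 was the member that did not pass in CD44KO(HFD) mice, with a log2 difference of 1.14 (SE 0.68, interval -0.29 to 2.58, adjusted p = 0.139).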

How the data were processed

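RNA of liver and WAT was read with Cy3 on 20 Agilent mouse arrays. The authors deposited 2 sets of linear intensity values, the scanner software's spot files (Feature Extraction 9.5.3.1) and a series table, which were equal for all 45018 spots of each of the 20 arrays. That software had subtracted a fitted background surface, with medians between 61.4 and 173, had replaced the dimmest signals by surrogates, and had not scaled arrays to each other. From the deposited intensity, log2 values were computed, outlier spots dropped, the 75th percentile of spots other than controls subtracted, and the spots of a probe averaged. A probe was tested when it was well above background on 3 or more of the 5 arrays in 1 of the groups.

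Genotypes were compared within a tissue by limma 3.58.1 (lmFit, eBayes, R 4.3.3), with Benjamini-Hochberg adjustment over all probes tested and a threshold of 0.05. For the tissues 1 fit held all 20 arrays. The exact permutation test, two-sided, was run for single genes. Accessions were matched to RefSeq for 22951 probes. The tests were checked on simulated data. Replicates are arrays labelled as separate samples, and 5 per group limit the precision. The labels do not say that these came from separate mice, though the design text gives 5 mice per genotype.

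Members, gene lists and tests were chosen with earlier results of these data known. The text names all 10 members, Cd44 as the check of the knockout, at most the 3 largest calls per gene list and tissue with the other calls of the positive acute phase list, and the 3 most alike patterns. Orm3, Hamp2 and Saa4 were added after their values were seen. Alternatives were normexp background correction, quantile and median scaling, the series table, 2 other filters, slide and replicate blocks, array weights, 1 fit of all arrays, the other Saa1 probe, and leaving out each array.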

Additional observations from a re-analysis of the deposited data

Results flagged for a closer look

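Orm1 and Orm2 in WT(HFD) WAT replicate 1 lay apart from the other 4 arrays of the group, at 0.05 against 0.65 or more for Orm1 and 0.01 against 0.81 or more for Orm2. Crp on the same array was at -0.70, with the next highest array at -6.51. The gap to the nearest array exceeded Dixon's 95% critical value in these 3 of 40 groups of 5 values, where chance gives about 5%, and all 3 lie on the array with 89.5% of spots well above background. The part of that array's quality in these values was not tested. Genotype differences in WAT of the members tested there are given with and without that array.

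The genotype effect on Orm2 differed between the tissues by -1.79 on the log2 scale (liver minus WAT, interaction term, adjusted p = 0.0362 by limma), with all 5 CD44KO(HFD) arrays below all WT(HFD) arrays in liver and all 5 above them in WAT.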

How the results depend on the processing

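The liver calls of Orm1 and Orm2 lay near the threshold, and the number of members called was 1 with normexp background correction or median scaling, 0 with no filter on dim probes, and 0 in 1 fit of all 20 arrays, where 1 member, Orm2, was called in WAT. With a replicate block 0 members were called in liver, and the same count of calls as without it was found in WAT and for the tissue comparisons. Correlations of deviations between same-numbered arrays of the genotypes ran from -0.04 to 0.34 in liver and from -0.21 to 0.12 in WAT, so the numbers were not taken to pair samples, and 1 of 5 liver pairs correlated best with its own number. Leaving out 1 array gave 0 to 2 members called in liver, with 0 called without WT(HFD) replicate 1, 2, 3 or 5 or CD44KO(HFD) replicate 1 or 2, and 1 without CD44KO(HFD) replicate 3 or 4. In WAT it gave 0 in each of the 10 fits.

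For the difference between tissues, 0 members were called with median scaling or no filter and 2 with array weights, and leaving out 1 array gave 0 to 2. Each of WT(HFD) liver replicates 1, 2, 3 and 5, CD44KO(HFD) liver replicates 1, 2 and 4, WT(HFD) WAT replicate 2 and CD44KO(HFD) WAT replicates 1 and 2 took the count to 0 when left out, and CD44KO(HFD) WAT replicates 4 and 5 took it to 2. The median log2 fold change of the members in WAT was 0.63 with quantile normalization and 0.73 with median scaling, and 0.26 to 0.52 with 1 array left out. Median scaling shifted the median of all probes by 0.48 in WAT, quantile normalization by 0.17, and the tissue difference of all probes in CD44KO(HFD) mice by -0.37 and -0.32.

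Directions turned for Hp between the tissues, which passed, and for members whose differences did not pass. In WAT these were Hp (-0.04), Lcn2 (0.63) and Hamp1 (0.13) with quantile normalization, Lcn2 with median scaling (0.44), Lcn2 (0.27) and Saa2 (-0.37) with array weights, Saa2 with the slide block (-0.01), Apcs with normexp (-0.34) and Saa1 by its other probe (-0.22). The difference between tissues of Apcs became 0.21 with normexp. Hp, called higher in liver, became lower there with quantile normalization, at -0.36 (WT(HFD)) and -0.51 (CD44KO(HFD)). Both of these differences passed as lower in liver, with adjusted p of 0.00139 and 5.66e-05 by limma. With 1 array left out, Saa3 in liver ranged from -0.96 to 0.05, Apcs in liver from -0.10 to 0.04, Saa2 in WAT from -0.12 to 0.38, Lcn2 in WAT from -0.29 to 0.39 and Apcs in WAT from -0.37 to 0.86, and the difference between tissues from -0.04 to 1.68 for Crp and from -0.89 to 0.36 for Apcs. The cause was not tested.

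Liver and WAT differ in slides and scanners, Hp was saturated on some WAT arrays, and Crp and Apcs were near background in WAT. With 5 arrays per group, differences of the size seen for Saa1, Saa2, Saa3 and Lcn2 in liver could not be separated from the spread of CD44KO(HFD) arrays.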
